A study of Mus musculus with 49 samples.

Results

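The genes described here are those of the cytosolic ribosome, measured by RNA sequencing in 49 single neurons of the mouse primary somatosensory cortex. All rows of the expression table were taken whose names begin with Rpl, Rps or Rplp followed by a number, together with Rpsa. Names that contain "-ps" and the S6 kinases were left out. The rule found 50 genes of the 9020 listed, of which 28 carry a large subunit name (Rpl, Rplp) and 22 a small subunit name (Rps, Rpsa). Of these 50 members, 41 are genes of the core set of subunits, 24 of the large and 17 of the small subunit. Another 36 core genes (22 large, 14 small) were not analysed here, among them Rps6, Rpl3, Rpl5, Rpl10, Rpl11, Rps4x, Rps27 and Rps27a. Of the 9 other members, Rps19bp1 and Rpl7l1 code for no ribosomal subunit, and Rps27l, Rpl39l, Rpl36al, Rps4l, Rps27rt, Rpl37rt and Rps3a3 are paralogs or copies made from mRNA.

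The neurons were born around E13.5, when the FlashTag (FT) dye was injected into the ventricle of the embryo, and were collected at P7 from CD1 mice of WT genotype. They were chosen by the brightness of the dye, and the content of each cell was drawn into a patch pipette (Patchseq). All 49 cells belong to a single condition and no animal is named, so they were treated as 1 sample, no cell group was tested against another, and every correlation below is a description. The cells were sequenced in 5 library pools of 12, 9, 9, 9 and 10 cells. Per cell 1240101 reads stood behind the values at the median, 209850 at the least and 35342325 at the most. Values are RPM, in which the reads of a gene are scaled to an equal total for each cell, so that a single read is worth 0.0283 RPM in the deepest and 4.77 RPM in the shallowest cell. A gene without a read can be as high as 3 reads, which is 0.0849 RPM in the deepest and 14.3 RPM in the shallowest cell. In addition, the kit has no molecular identifiers, so that intervals cover counting error only. The pan-neuronal markers Snap25, Syt1, Stmn2 and Map2 were at 10 RPM or more in all 49 cells and Rbfox3 in 48. The excitatory marker Slc17a7 reached 10 RPM in 29 cells and Neurod6 in 36. A cell of pool 3, IL01_Pool3, had 68.8% of its reads on hemoglobin genes.

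The cytosolic ribosome consists of a small subunit, which binds the mRNA and decodes it, and a large subunit, which joins amino acids into the protein. Each subunit is built of ribosomal RNA and a set of proteins that are mostly present in a single copy. Many of their mRNAs begin with a run of pyrimidines, the terminal oligopyrimidine (TOP) motif, through which the mTOR pathway adjusts their translation. In neurons ribosomes work in the cell body as well as in dendrites and axons.

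The share of reads on these 50 genes, which leaves out the 36 core genes not analysed here and so is not that of all ribosomal protein RNA, varied widely between cells of the same library pool. The 50 genes together took a median of 0.809% of a cell's reads (0.236% to 2.66%), with quartiles of 0.579% and 1.11%. The highest share was 11.3 times the lowest. Between 0.5% and 1.5% lay 35 cells, 10 cells were below and 4 above. From pool 1 to pool 5 the medians were 0.603%, 0.881%, 0.769%, 0.809% and 0.977%, and the ranges of the 5 pools overlapped. The pool accounted for 6.44% of the variance between cells, beside an average of 8.33% for pools that play no part.

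**Figure D1:**
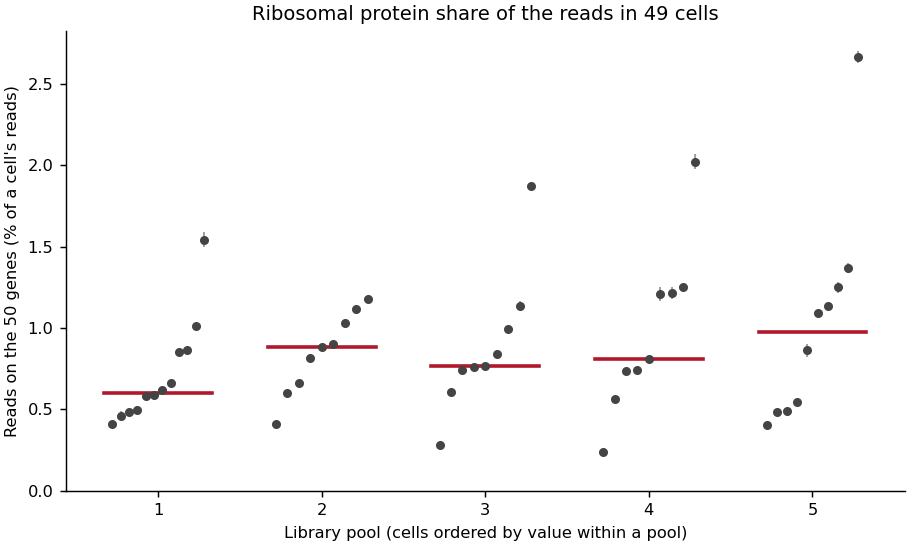
Each point is a cell, the y axis is the percentage of its reads on the 50 ribosomal protein genes, the bars are exact Clopper-Pearson 95% intervals, and the red lines are the medians of the 5 library pools. The cells spread from 0.236% to 2.66%, with pool medians between 0.603% and 0.977%.

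The cell with the highest share, IL05_Pool5, had 2.66% (exact Clopper-Pearson 95% interval 2.63% to 2.70%). Its microglial markers summed to 6599 RPM and its astrocyte markers to 2202 RPM. The cell with the second highest share, IL09_Pool4, had 2.02%, with microglial markers at 0 and astrocyte markers at 1681 RPM, and in IL08_Pool3 the share was 1.87% beside 3551 and 2667 RPM. These astrocyte sums were mostly or wholly the gene Apoe, with 2010, 1681 and 2441 RPM in IL05_Pool5, IL09_Pool4 and IL08_Pool3. The lowest share, 0.236%, was that of IL02_Pool4, in which 40 of the 50 members had a read, beside 5832 of the 9020 genes listed. The same cell had the highest level of the nuclear RNA Malat1, 68722 RPM. In IL01_Pool3 the share was 0.279%, and 0.896% when hemoglobin reads were left out.

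The members differed far more from each other than the cells did in their sum. The highest median over the 49 cells was 675 RPM for Rpl4, a protein of the large subunit that lines the exit tunnel of the growing chain. Its level ranged from 1.75 to 1829 RPM between cells, and 41 cells reached 100 RPM. Rps3, which lies at the entry of the mRNA into the small subunit, had a median of 654 RPM and ranged from 13.9 to 4815 RPM. Rpl4 was the leading member in 17 cells and Rps3 in 13, so that these genes led 30 of the 49 cells between them.

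The next levels belonged to genes of both subunits. Rps9, a further protein of the mRNA entry channel, had a median of 416 RPM (28.3 to 1913 RPM). The large subunit gene Rpl32 had a median of 351 RPM (14 to 2634 RPM). The medians of Rps14, Rpl8, Rps26, Rplp2 and Rps21 were 284, 264, 230, 228 and 217 RPM. Together the 10 members with the highest medians held a median of 49.8% of the ribosomal protein RPM of a cell, with a range from 12% to 66.7%.

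**Figure D2:**
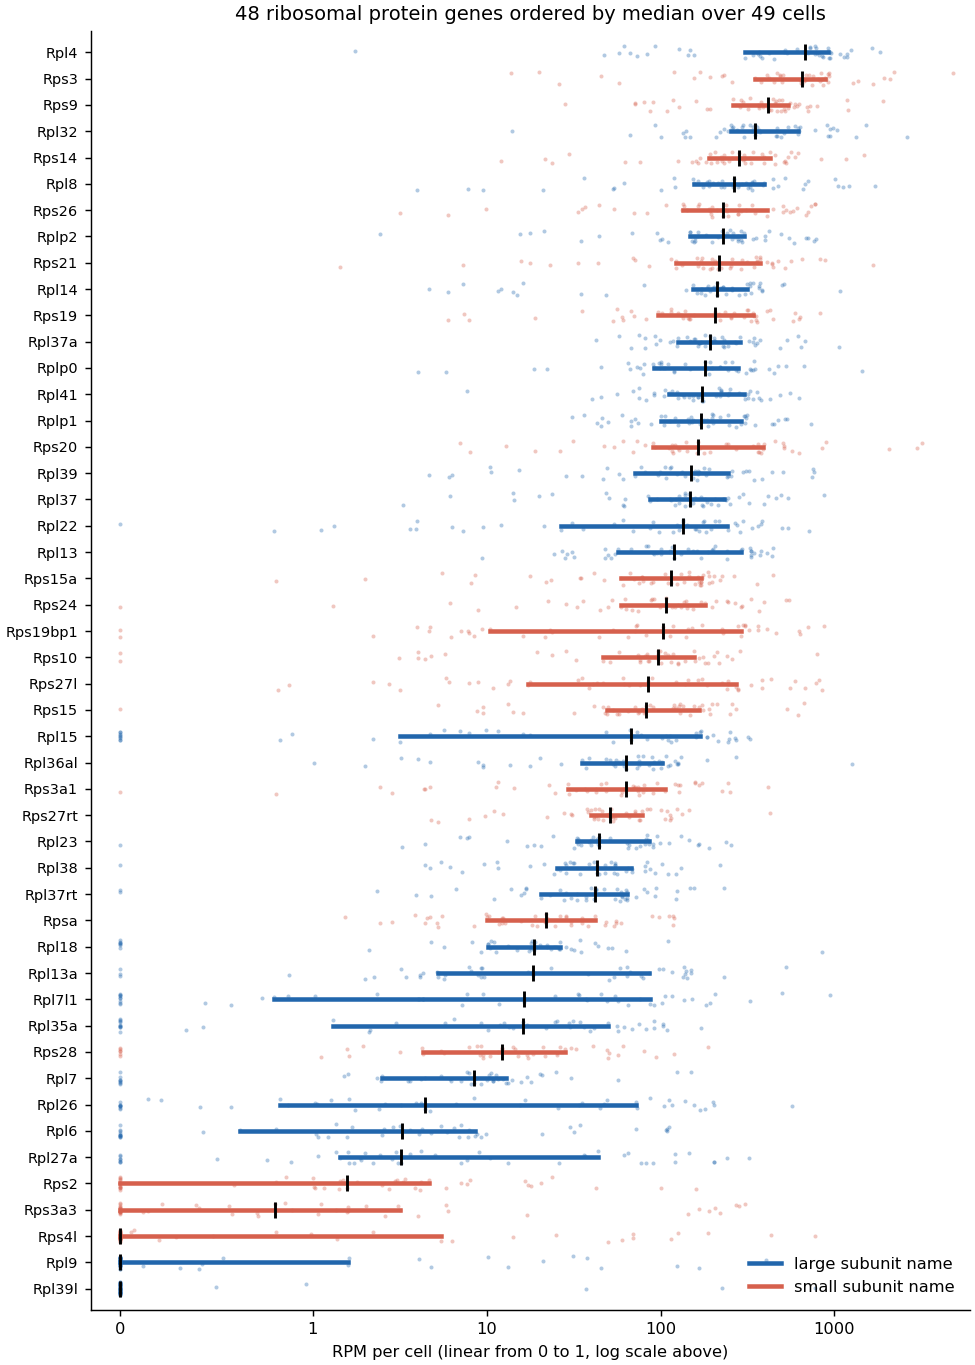
Each row is a gene, 48 of the 50 being shown, ordered by its median, with the RPM of each of the 49 cells as points, the quartiles as a thick line and the median as a black tick (blue for large, red for small subunit names). Medians run from 675 RPM for Rpl4 to 0 for Rps4l, Rpl9 and Rpl39l, and neighbouring genes overlap widely.

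In all 49 pairs of neighbouring genes in this order the quartile ranges overlapped. Because the genes were sorted by median, such overlap was likely from the start and does not test differences within cells. The ends of the order were far apart, however. The lower quartile of Rpl4 was 307 RPM, whereas the upper quartile of Rpl6, a large subunit protein, was 8.58 RPM. Since the kit reads the end of the mRNA, RPM was not divided by length. Per kb of transcript, 8 of the 10 highest genes stayed among the 10 highest.

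The 3 genes of the stalk, the arm of the large subunit that recruits elongation factors, had similar medians. Rplp0, the base of the stalk, had a median of 179 RPM (4.03 to 1445 RPM). Its acidic partners had 172 RPM (Rplp1, 31.1 to 737 RPM) and 228 RPM (Rplp2, 2.43 to 782 RPM). Rplp1 and Rplp2, which pair in the stalk, had a Spearman rho of 0.53 over the 49 cells, against 0.26 for Rplp0 with Rplp1 and 0.28 for Rplp0 with Rplp2.

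At the lower end stood further core genes of both subunits. Rpl9 had a read in 18 of 49 cells and a median of 0 (highest 402 RPM), and 3 cells reached 100 RPM. Rps2, of the mRNA entry channel, had a median of 1.56 RPM with reads in 35 cells and a highest value of 160 RPM, and it was the only member below the limit of 100 reads in at least 2 cells. The medians of Rpl27a, Rpl6, Rpl26, Rpl7 and Rps28 were 3.21, 3.24, 4.44, 8.40 and 12.3 RPM. These genes were not low everywhere: Rpl26 reached 572 RPM and Rpl27a 322 RPM in single cells. Rpsa, the receptor-related protein of the small subunit, was intermediate with a median of 21.8 RPM (1.54 to 119 RPM) and a read in every cell.

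The members that code for no core subunit lay in the middle and at the bottom. Rps19bp1, a nucleolar partner of Rps19, had a median of 104 RPM and ranged from 0 to 877 RPM. Rpl7l1, a relative of Rpl7, had a median of 16.5 RPM and reached 939 RPM in 1 cell, in which it led the members. Among paralogs, Rps27l had a median of 85.1 RPM (0.82 to 847 RPM) and Rpl36al a median of 63.0 RPM (1.01 to 1271 RPM), while their partners Rps27 and Rpl36a were not analysed here. Rpl39, a small protein of the exit tunnel, had a median of 150 RPM and a read in all 49 cells, whereas its paralog Rpl39l had a read in 5 cells and reached 100 RPM in 2. Rpl22, which has a paralog Rpl22l1 that was not analysed here, had a median of 134 RPM (0 to 719 RPM). Rps4l was found in 22 cells with a median of 0 and a highest value of 771 RPM, and its relative Rps4x was not analysed here. Nor were the paralogs Rpl3 and Rpl3l, or Rpl10 and Rpl10l.

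Compared with the table as a whole, the members, which leave out the 36 core genes not analysed here, were found in more cells and at higher levels. A read was present in all 49 cells for 24 of the 50 members (48%), against 8.1% of the 9020 genes listed. At least 40 cells had a read for 43 members (86.0%), against 41.3% of all genes. A median of at least 100 RPM was reached by 24 members (48%), against 13.7%. The median of the members' medians was 94.6 RPM, and that of all genes 3.87 RPM. A cell had a read of between 36 and 49 members, with a median of 47, and the lowest numbers belonged to IL12_Pool1 and IL01_Pool3. The count of members found in all cells depended on the limit, since it was 3 (6.0%, against 1.39% of all genes) with at least 10 reads and 6 (12%, against 2.2%) with at least 10 RPM.

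The genes of related pathways gave a scale for these levels. Of 102 names listed for the mitochondrial ribosome, 73 had a row, with a median of medians of 40.3 RPM and a read in all cells for 5 of 73 (6.85%). The highest of them, Mrpl20, Mrpl52 and Mrpl28, had medians of 314, 280 and 279 RPM. For 16 elongation factors and other TOP mRNAs the median of medians was 106 RPM, led by the translocation factor Eef2 (213 RPM), the noncoding host RNA Gas5 (190 RPM) and Eef1b2 (165 RPM). The 25 initiation factors had 153 RPM, with Eif1, Eif1b and Eif4g2 at 474, 461 and 388 RPM. Genes of ribosome assembly were low as a group (30 genes, 9.29 RPM) although nucleolin (Ncl) had 524 RPM, Nop10 385 RPM and Nhp2 233 RPM. The 21 genes of mTOR and TOP regulation had a median of medians of 1.42 RPM, and only Rheb, the activator of mTOR, exceeded 100 RPM (275 RPM), while the S6 kinase Rps6kb1 had 32.7 RPM. The 73 nuclear genes of oxidative phosphorylation were the highest group, with 471 RPM and a read in all cells for 56 (76.7%). Their leading genes Atp5g3, Ndufa4 and Atp5a1 had medians of 1732, 1501 and 1379 RPM. Rack1, a small subunit protein that the naming rule misses, had a median of 421 RPM and ranged from 3.50 to 1210 RPM.

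Summed over the names in the table, the large and the small subunit held similar amounts of RNA. The summed RPM of the 28 large subunit names had a median of 3917 (905 to 11103 RPM), and that of the 22 small subunit names a median of 3771 (1064 to 15529 RPM). Their ratio had a median of 1.02 with quartiles of 0.916 and 1.16. It was above 1 in 28 cells and below 1 in 21, and 25 cells lay between 0.9 and 1.1. Because the subunits differ in the number of names, the ratio of the mean RPM per gene was 0.804. With core genes alone the ratio of sums was 1.12, 35 cells were above 1 and 12 between 0.9 and 1.1. The closeness to 1 thus describes these names only, since 36 core genes were not analysed here. On a log scale, which gives low genes the same weight as high ones, the mean log2(RPM + 1) per gene of the large subunit minus that of the small subunit had a median of -0.58.

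**Figure D3:**
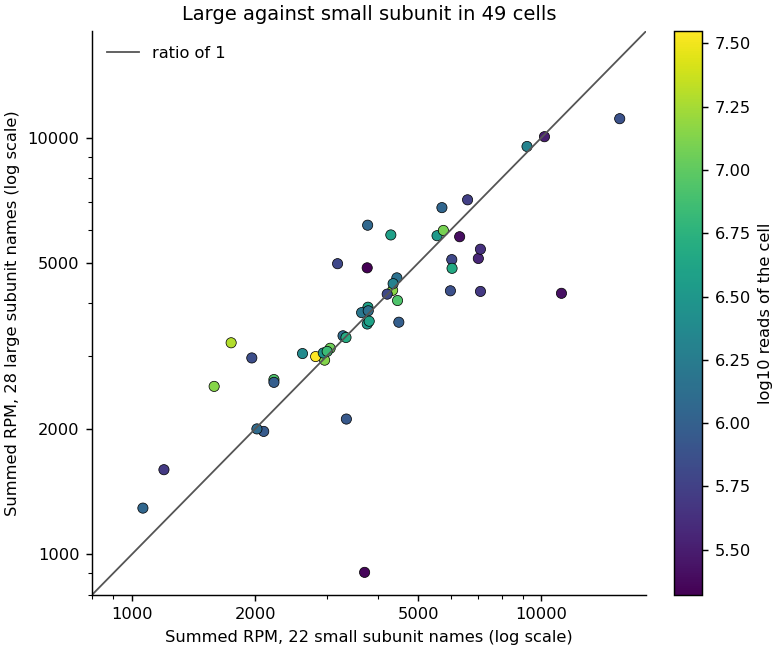
Each point is a cell, with the summed RPM of the small subunit names on the x axis and of the large subunit names on the y axis, both on a log scale, the line marks a ratio of 1, and the colour gives log10 of the cell's reads. The sums rise together (Spearman rho 0.84), and the point far below the line is IL12_Pool1 with a ratio of 0.245.

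Single genes moved this ratio. The lowest value, 0.245, was that of IL12_Pool1, where Rps20, a protein of the head of the small subunit, held 69.7% of the ribosomal protein RPM with 724 reads. Without Rps20 the ratio of that cell was 1.85. The second lowest, 0.378, was that of IL02_Pool1, where Rps3 held 31.2%. The highest ratio, 1.84, was found in IL01_Pool1, whose leading gene Rpl4 held 10.502%. When Rpl4 and Rps3 were left out, the median ratio was 1.01, the range 0.206 to 2.31, and 39 of 49 cells stayed on the same side of 1.

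The spread of the ratio was wider in shallow cells. In the 20 cells with under 1 M reads it ranged from 0.245 to 1.57 with a median of 0.880, and in the 29 deeper cells from 0.803 to 1.84 with a median of 1.04. The Spearman rho of the ratio and the total reads was 0.31. Counting error alone was smaller than the distance from 1 in most cells, since the 95% interval of the ratio included 1 in 10 cells, lay below 1 in 15 and above 1 in 24. The medians of the pools were 1.02, 1.03, 1.03, 0.955 and 1.02. The SD of the log2 ratio was 0.49, and that of the mitochondrial ribosome (Mrpl over Mrps, median ratio 2.06, range 0.668 to 6.97) was 0.64.

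Between cells the members varied by different amounts. The median over members of the SD of log2(RPM + 1) was 1.77, against 2.63 over all genes and 1.87 over the 731 genes with a read in all cells. For the 24 members with a read in all cells it was 1.58. The steadiest members were Rpl37a (SD 0.97, 42.6 to 1061 RPM), the stalk gene Rplp1 (1.102), Rpl41 (1.11), Rps27rt (1.19) and Rps9 (1.19). The most variable were Rpl15 (3.05), Rpl7l1 (2.97), Rpl26 (2.85), Rps4l (2.81) and Rps3a3 (2.74).

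Some members differed between the library pools. The median of Rpl15, a large subunit core protein, was 112, 102, 73.7, 16.3 and 5.11 RPM from pool 1 to pool 5. That of Rps19bp1 was 143, 104, 232, 229 and 12.8 RPM. That of Rpl7l1 was 2.46, 33.3, 56.6, 65.1 and 8.37 RPM, and that of Rpl13a 9.26, 85.8, 18.5, 5.17 and 43.9 RPM. In most members the pools were closer: among the 24 members with a median of at least 100 RPM, the highest pool median was over 5 times the lowest in 2 (8.33%), against 29.7% of the 1232 genes with such a median. The median depth fell from 9.87 M reads in pool 1 to 0.814 M in pool 5, and its part in these values was not tested.

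Most members rose and fell together from cell to cell, though loosely. The median Spearman rho of the 1225 pairs of members over the 49 cells was 0.25, and 90.2% of the pairs were above 0. This share was 65.4% among the 731 genes with a read in all cells. Among mitochondrial ribosomal genes it was 79.2%, and among oxidative phosphorylation genes 93.4%. Ranked within library pools the median rho of the members was 0.25. For the 24 members with a read in all cells the median rho was 0.33, against 0.09 for the 731 genes that also had a read in every cell. It was 0.21 among large and 0.27 among small subunit names, and 0.25 between the subunits. Mitochondrial ribosomal genes had 0.13, initiation factors 0.15, elongation factors and other TOP mRNAs 0.10 and oxidative phosphorylation genes 0.27. All values share the same cells and each cell's total, so that pairs are not independent.

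Which members followed the rest differed. The rho of a member with the sum of the others had a median of 0.47 and was above 0 for 48 of 50. Among 3685 genes outside the members, the median rho with the members' sum was -0.02, in 44 cells thinned to equal depth. Of the members, Rps3 (0.75), Rps15a (0.71) and Rps9 (0.67) had the highest rho. Rpl4, the gene with the highest median, had 0.31. The exceptions were Rpl9 (-0.22) and Rpl6 (-0.10), both with medians under 4 RPM. The closest pair was Rpl37 and its copy Rpl37rt (0.94), and Rpl37a and Rps15a had 0.65.

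Other RNAs moved with the summed ribosomal protein RNA. The summed RPM of the 50 genes had a rho of 0.63 with that of the mitochondrial ribosome (0.57 within pools, same sign in 5 of 5 pools), 0.62 with oxidative phosphorylation (0.57 within pools) and 0.59 with elongation factors and other TOP mRNAs (0.42). It was 0.43 for Rack1, 0.29 for initiation factors, 0.27 for ribosome assembly and 0.07 for mTOR and TOP regulation. Without the cell rich in hemoglobin reads, the first 3 values were 0.61, 0.60 and 0.57. The large subunit sum had a rho of 0.70 with the mitochondrial ribosome and the small subunit sum 0.56.

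Nuclear RNAs went the other way. The rho with Malat1, a noncoding RNA kept in the nucleus, was -0.49 (-0.47 within pools, same sign in all 5), and it was between -0.38 and -0.49 for all 6 such RNAs measured (Malat1, Meg3, Miat, Rian, Snhg11 and Kcnq1ot1). Such values were not confined to nuclear RNAs, since the pan-neuronal marker Syt1 had -0.45. Among 3685 genes outside the members, in 44 thinned cells, the median rho was -0.02 and the lowest -0.59. Malat1 ranged from 306 to 68722 RPM. How much of the nucleus and of the cytoplasm entered each pipette is not recorded in the labels, and its part in the ribosomal protein share was not tested. The rho with the total reads was -0.30 and with the mitochondrially encoded share 0.12.

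Of the cell type marker lists, those of astrocytes and microglia moved with the members. Inhibitory neuron markers (6 genes, 1.07 to 6185 RPM summed, rho -0.01), excitatory markers (6 genes, 4.25 to 2237 RPM, -0.09), pan-neuronal markers (5 genes, 1011 to 15101 RPM, -0.09) and the choroid plexus marker Ttr (-0.08) had values near 0, although the pan-neuronal Syt1 alone had -0.45. Astrocyte markers (6 genes, 0 to 8143 RPM) had a rho of 0.60. This value rested on Apoe, a lipid carrier of astrocytes and microglia (0.65, median 126 RPM), since the other 5 lay between -0.08 and 0.19, their sum had 0.19, and the defining markers Aqp4 and Gja1 were at 0 in 25 and 34 cells. Microglial markers (5 genes with a row, 0 to 6599 RPM) had 0.41, with C1qa at 0 in 33 cells and Csf1r in 29. Oligodendrocyte lineage markers had 0.17 (5 genes, 0 to 3905 RPM), with Olig1 at 0 in 28 cells. Erythroid markers had 0.14, and Flt1, the 1 endothelial marker with a row, had -0.30 with a read in 12 cells. The part of RNA from other cells in the members' values was not tested.

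**Figure D4:**
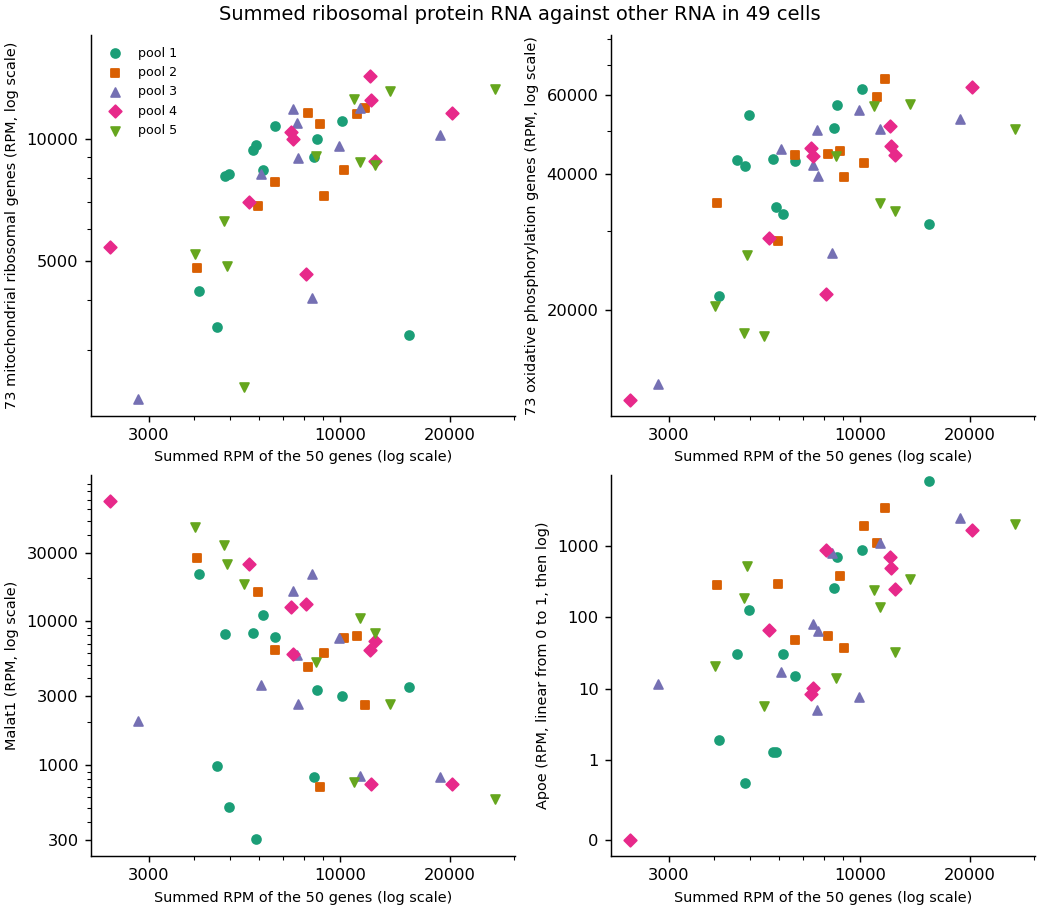
Each point is a cell, with the summed RPM of the 50 genes on the x axis and, on the y axes, the summed RPM of mitochondrial ribosomal genes and of oxidative phosphorylation genes and the RPM of Malat1 and of Apoe, with colours and shapes for the 5 library pools. The Spearman rho is 0.63, 0.62, -0.49 and 0.65.

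Outside the members, the genes whose level was most like the summed ribosomal protein RNA were sought among 3685 genes with a read in at least 40 cells, in 44 cells thinned to 358412 reads each. Fth1, the heavy chain of the iron store ferritin, came first (rho 0.76), and its light chain Ftl1 was also among the first 10 (0.65). The others were the proteasome genes Psmb6 (0.71) and Shfm1 (0.66), the chemokine Ccl4 (0.67), Pebp1 (0.66), Sh3bgrl3 (0.66), the actin-binding peptide gene Tmsb4x (0.64) and the respiratory chain genes Ndufc1 (0.64) and Uqcrq (0.63). The median of the 3685 genes was -0.02 and their 99th percentile 0.53. In all 49 cells Ccl4 had 0.44 and Pebp1 0.50, and the other 8 lay between 0.55 and 0.67.

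The ends of the mRNAs, where this kit reads, are shared with other genes in many members. For each gene the last 400 bases of its transcripts in GENCODE M21 (GRCm38) were used. Every overlapping stretch of 100 bases, the read length, was taken from them. The percentage of stretches that also occurs in a transcript of another gene, on either strand, was counted. This measure was chosen after the levels had been seen. Its median was 17.3% for the 50 members, of which 18 were at 0 and 6 above 50%. It was 0 for all listed genes with a value, of which 7868 of 8814 were at 0. For the 36 core genes that were not analysed here it was 57.0%, with 20 above 50% and Rpl5, Rpl10 and Rpl36a at 100%, against 18.3% for the 41 core members. Rpl12 and Rps16 were at 0 among these 36.

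**Figure D5:**
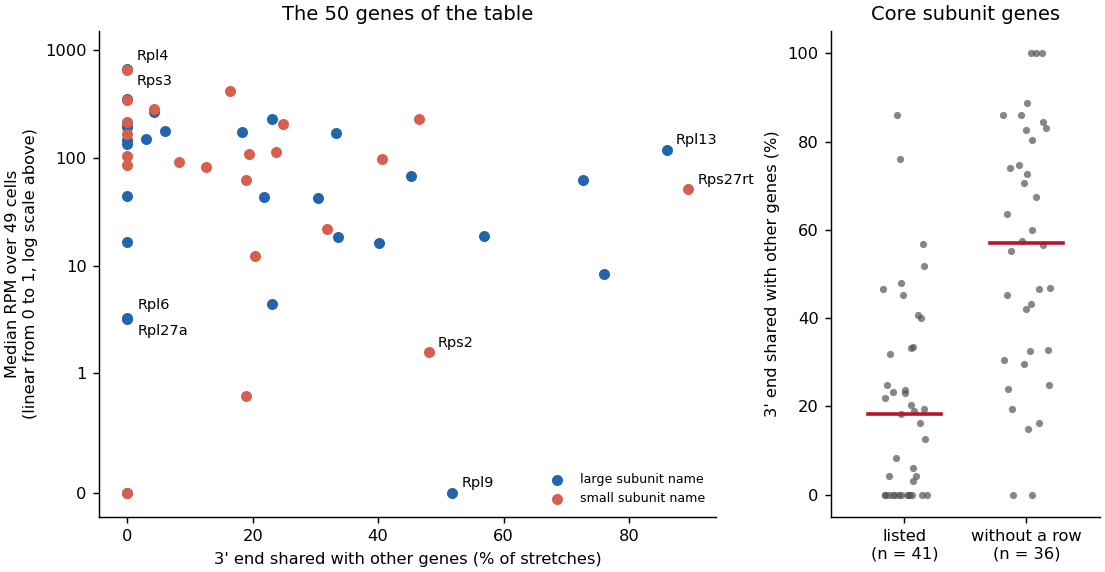
Left, the 50 genes with the percentage of stretches of their mRNA end that occur in another gene on the x axis and the median RPM on the y axis (linear from 0 to 1, log scale above), and right, the same percentage for core genes with and without a row, with the medians of 18.3% and 57.0% in red. Rpl6 and Rpl27a are low although they share no stretch, and Rpl13 is at 120 RPM although it shares 86.0%.

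Members with shared ends had lower levels, with exceptions in both directions. The median of the medians was 150 RPM for the 23 members that shared at most 10%, 95.4 RPM for the 12 that shared over 10% and up to 30%, and 42.2 RPM for the 15 that shared more. Across the 50 genes, which are not replicates, the rho of the shared percentage and the median RPM was -0.28. Of the low core genes, Rpl7, Rpl9 and Rps2 shared 76.1%, 51.8% and 48.1%, and Rpl26 and Rps28 shared 23.1% and 20.3%. Rpl4, Rps3 and Rpl32, among the highest genes, shared 0%. However, Rpl6 and Rpl27a, with medians of 3.24 and 3.21 RPM, shared 0% as well, while Rpl13 shared 86.0% with a median of 120 RPM. How reads that fit several genes were counted is not given in the sources used here, so levels of genes with shared ends, and their comparison with other genes, are uncertain.

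Copies and their parents were compared as well. Rps27rt (chr9:114982366-114982739, minus strand), annotated as a protein-coding gene, shared 89.5% of its mRNA end and had a median of 51.0 RPM, with reads in each of the 49 cells. Rpl37rt (chr5:115102923-115110268, minus strand), a transcribed processed pseudogene that shared 30.4%, followed Rpl37 (chr15:5116645-5119140, plus strand) with a rho of 0.94, at a median of 0.265 times its level with quartiles of 0.234 and 0.313. Rps3a3, a processed pseudogene that shared 18.9%, had a median of 0.81 RPM but 8 cells at 100 RPM or more, and its rho with Rps3a1 (median 62.9 RPM) was 0.19. Exons of other genes overlapped 35.4% of the exon bases of Rpl13a, 28.7% of those of Rps10 and 20.04% of those of Rpl32, and whether reads were assigned by strand is not given.

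The members lie on 19 chromosomes, with at most 10 on the same one, chromosome 7. What many of them share is the sequence at the start of the gene. RefSeq start sites (GRCm38.p6) were available for 40 of the 50 members and 27025 genes in all. A run of at least 8 pyrimidines that begins with C was taken as a simple form of the TOP motif. It was searched on the transcribed strand, within 15 bases on each side of any annotated start of the gene. Because both sides were searched, a run can lie wholly before the annotated mRNA. The run was found in 16 of 40 members (40%) and in 10.8% of all genes. Within 50 bases on each side it was found in 30 (75%) and 31.99%. The letters CTTTCC, which can lie inside such a run, were found in 8 members (20%, against 1.67%) in the narrow window and in 14 (35%, against 5.43%) in the wide one. Mitochondrial ribosomal genes, which are not known as TOP mRNAs, had the run in 12.5% and 32.8% of 64 genes. The large and small subunit names had it in 41.7% and 37.5% in the narrow window.

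The windows below show the run, in capitals, in members of high and low level, each printed from 15 bases before the annotated start, 5′ to 3′ on the strand of the gene, with its position on GRCm38.p6.
Rpl4 (chr9:64173372-64173401, plus strand): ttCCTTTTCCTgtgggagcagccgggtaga
Rps9 (chr7:3704026-3704055, plus strand): accgccttgtCTCTCTTTgtctcgggcctg
Rplp2 (chr7:141447636-141447665, plus strand): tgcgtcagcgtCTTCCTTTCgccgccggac
Rps26 (chr10:128626492-128626521, minus strand): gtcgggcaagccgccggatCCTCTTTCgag
Rpl14 (chr9:120571502-120571531, plus strand): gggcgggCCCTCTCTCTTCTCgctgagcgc
Rps10 (chr17:27635230-27635259, minus strand): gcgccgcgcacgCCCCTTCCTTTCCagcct
Rpl15 (chr14:18270972-18271001, minus strand): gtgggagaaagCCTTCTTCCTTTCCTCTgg
Rpl38 (chr11:114668565-114668594, plus strand): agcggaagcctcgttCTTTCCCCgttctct
Rpl18 (chr7:45718056-45718085, plus strand): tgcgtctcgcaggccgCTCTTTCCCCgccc
Rpl27a (chr7:109519180-109519209, plus strand): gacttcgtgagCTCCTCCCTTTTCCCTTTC

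The longest run of those shown, 19 bases, was that of Rpl27a, whose median was 3.21 RPM, and Rpl4 with 675 RPM had a run of 9 bases. That of Rpl4 lies wholly before the annotated start used here. In the same window no run was found for the following members, which include the second highest gene, the variable Rps19bp1 and Rpl7l1 that code for no subunit, and the copy Rps27rt.
Rps3 (chr7:99483695-99483724, minus strand): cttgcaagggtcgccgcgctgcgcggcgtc
Rps19bp1 (chr15:80264292-80264321, minus strand): cagggcggaagtagctcgccgcgtgtgggc
Rpl7l1 (chr17:46782642-46782671, minus strand): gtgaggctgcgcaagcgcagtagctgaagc
Rps27rt (chr9:114982725-114982754, minus strand): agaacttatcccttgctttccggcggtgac

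These windows depend on the annotated start, and a run outside the window is not counted. Of the 7 matched members that are no core gene, 1 had the run in the narrow window, and of the 33 core members 15 (45.5%).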

How the data were processed

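Per the labels and the study's methods, the authors made cDNA with a SMART-Seq v4 kit for 3′ ends and libraries with Nextera XT, sequenced single-end reads of 100 bases, aligned them with STAR to mm10 (GRCm38), counted them with HTSeq and deposited RPM for 9020 genes, each with at least 100 RPM in at least 2 cells. Tool versions, the annotation and the treatment of strand and of reads with several matches are not given in the sources used here. Values were divided by the value of a single read in each cell. Of 314114 values above 0, 100% came out whole within 0.01 of a read, and on simulated cells 441980 of 441980 values were recovered. Reads served for detection, thinning and intervals (exact Clopper-Pearson, 95%), and RPM for levels and ratios, with a pseudocount of 1 on the log2 scale.

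All 49 cells count as 1 sample, so no test was made. No columns of other series were used. The members, gene lists and tests were chosen with earlier results of these data known. All members were accounted for, and named with values were the 10 highest and 10 lowest by median, the 5 most and 5 least variable, stalk genes, paralog pairs, the 3 leading genes of each comparison list and the 10 genes most like the members. Other genes named with values were chosen after these had been seen. Some genes under these rules are not reported here. Alternatives were other denominators, member sets, detection limits, pseudocounts, edgeR's TMM factors, thinning to 358412 reads (5 cells left out) and leaving out each library pool. The tools were edgeR 4.0.16 in R 4.3.3, and in Python 3.11.15 scipy 1.17.1, pandas 2.3.3, numpy 2.4.6 and matplotlib 3.10.9. Coordinates of genes are those of GENCODE M21.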

Additional observations from a re-analysis of the deposited data

Results flagged for a closer look

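Rows that the naming rule leaves out also carried ribosomal protein sequence. The 4 rows with "-ps" in their names (Rpsa-ps10, Rpl10-ps3, Rps24-ps3 and Rps2-ps10) summed to a median of 132 RPM over the 49 cells, with a highest value of 1081 RPM, and were singled out because they hold reads in every cell and enter no comparison. Rps2-ps10, with a median of 30.1 RPM and reads in 49 cells, was above its parent Rps2 (1.56 RPM) in 44 cells. Rpl10-ps3 had a median of 50.1 RPM while Rpl10 was not analysed here, and Rpsa-ps10 and Rps24-ps3 had 11.1 and 15.8 RPM. Of the mRNA end, Rps2-ps10 shared 91.8% of stretches with other genes and Rpl10-ps3 90.7%.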

How the results depend on the processing

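Of 50 alternative values, 46 stayed within the SD between cells, pairs or members, or within 1.5 times the main count. For the astrocyte markers the limit was a fixed distance in rho. The SD is a wide limit, being 0.296 for the subunit ratio. The ratios of mean RPM per gene, 0.804 and 0.790, thus counted as unchanged although the main ratio, 1.02, is above 1. The share of reads lay between 0.749% and 0.853% under every alternative run, the linear ratio of the subunits between 0.790 and 1.12, and the median correlation between 0.221 and 0.259. At least 8 of the 10 highest members stayed under each length, TMM and pool alternative. The mean log2(RPM + 1) per gene, large minus small, was -0.58, and the number of members found in all cells fell from 24 to 3 with at least 10 reads and to 6 with at least 10 RPM, since fewer values pass a higher limit. Chosen after seeing the data, the astrocyte markers without Apoe had a rho of 0.19 in place of 0.60. With only 1 group of cells no groups could be paired, while the subunit ratio and the ratio of Rpl37rt to Rpl37 were taken within each cell.

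Depth limits the low members most, since a single read stands for up to 4.77 RPM. Values are shares of each cell's reads, so that a gene taking many reads lowers all others. Fewer ribosomal mRNAs per cell and less cytoplasm in the pipette cannot be told apart.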
